A study of Rattus norvegicus with 12 samples.

Results

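Spirochaetota are the spirochaetes, a phylum of slender helical bacteria, and in the rat faeces sequenced here they comprised 15 of the 7240 amplicon sequence variants in the deposited table. A variant, or ASV, is an exact 16S rRNA gene sequence inferred from the reads. The members were every variant whose lineage names the phylum, and together they held 17544 reads, 0.378% of the reads of all libraries. The phylum was picked because its summed share was 0 in SAH+Tet+ABX, intermediate in SAH+Tet, low in SAH and highest in Sham. Those measured shares chose the members, so their values across the groups are given as a description, without support for any effect. Fits of all features included the members, and their calls are set beside the share of all features called.

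Spirochaetes swim by means of flagella that lie in the periplasm and wind around the cell body, which lets them move through viscous material such as mucus and plant slurry. In the gut of mammals, species of Treponema live as anaerobic commensals that ferment plant polysaccharides and their breakdown sugars, often beside cellulose-degrading bacteria. Brachyspira species colonise the large intestine, where some attach to the epithelium and cause diarrhoea in pigs and poultry.

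Faeces were collected to learn whether the gut community differed among the treatment groups of a study of tetrandrine (Tet), a plant alkaloid that blocks calcium channels, in rats. SAH stands for subarachnoid haemorrhage, a bleed around the brain that was modelled in these animals. The 12 libraries fell into 4 groups of 3: SAH+Tet+ABX (haemorrhage, tetrandrine and ABX, the usual short form for antibiotics), SAH+Tet (haemorrhage and tetrandrine), SAH (haemorrhage alone) and Sham (sham controls). The labels give no strain, age, sex, dose, sampling time or housing and do not name the drugs of the ABX mix. Nor do they say whether the libraries of a group came from separate animals.

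Library totals were 211450 to 244856 reads in SAH+Tet+ABX, 227301 to 516810 in SAH+Tet, 248285 to 531426 in SAH and 495890 to 519889 in Sham. SAH+Tet 3 and SAH 1 stood apart from the other libraries without antibiotics. Each had under 300000 reads, as did all 3 SAH+Tet+ABX libraries. At an equal depth of 211450 reads SAH+Tet 3 would show 1327 variants of any phylum and SAH 1 would show 1166, against 440 to 659 in SAH+Tet+ABX and 1946 to 2484 in the other 7 libraries. The main ratios are therefore given with and without these 2 libraries. All shares are relative to a library's reads, so fewer spirochaete cells and more cells of other bacteria cannot be told apart.

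By lineage the phylum held 3 genus-level features. Treponema had 6 variants, 3 of which carry the species label of an uncultured bacterium. Members of the family Spirochaetaceae without a genus name had 8 variants, and Brachyspira had 1. Of 6 genus names fixed to check the phylum label, Treponema and Brachyspira were found, and Spirochaeta, Sphaerochaeta, Leptospira and Borrelia were not. By mean share the phylum ranked 9 of 23 phyla over all 12 libraries and 5 in Sham. Within it the reads were very unequally divided: Treponema variant 1 held 63.9% of the phylum's reads, variant 2 held 19.6%, variant 3 held 8.28%, Spirochaetaceae variant 1 held 4.31% and Treponema variant 4 held 2.92%. At the other end, 7 variants had 10 or fewer reads in all, 18 reads together, and each of these 7 was seen in 1 library only.

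The summed Spirochaetota share differed by more than 2 orders of magnitude among the 9 libraries that held any reads. No read was found in SAH+Tet+ABX, where 0 of 211450, 234185 and 244856 reads allow shares of up to 0.00142%, 0.00128% and 0.00123% (3 reads per library). In SAH+Tet the shares were 0.667%, 0.419% and 0.00220%, from 3055, 2166 and 5 reads. In SAH they were 0.00483%, 0.0403% and 0.0963%, from 12, 214 and 432 reads. In Sham they were 0.960%, 0.139% and 1.19%, from 4762, 692 and 6206 reads. SAH+Tet 3 and SAH 1, both with few reads and few variants of any kind, were the lowest libraries of their groups, while Sham 2 was the lowest Sham library at a depth like that of its group. Exact 95% intervals, which cover counting error only, were narrow for the well-covered libraries (0.933% to 0.988% in Sham 1) and wide for the sparse ones (0.000714% to 0.00513% in SAH+Tet 3).

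**Figure D1:**
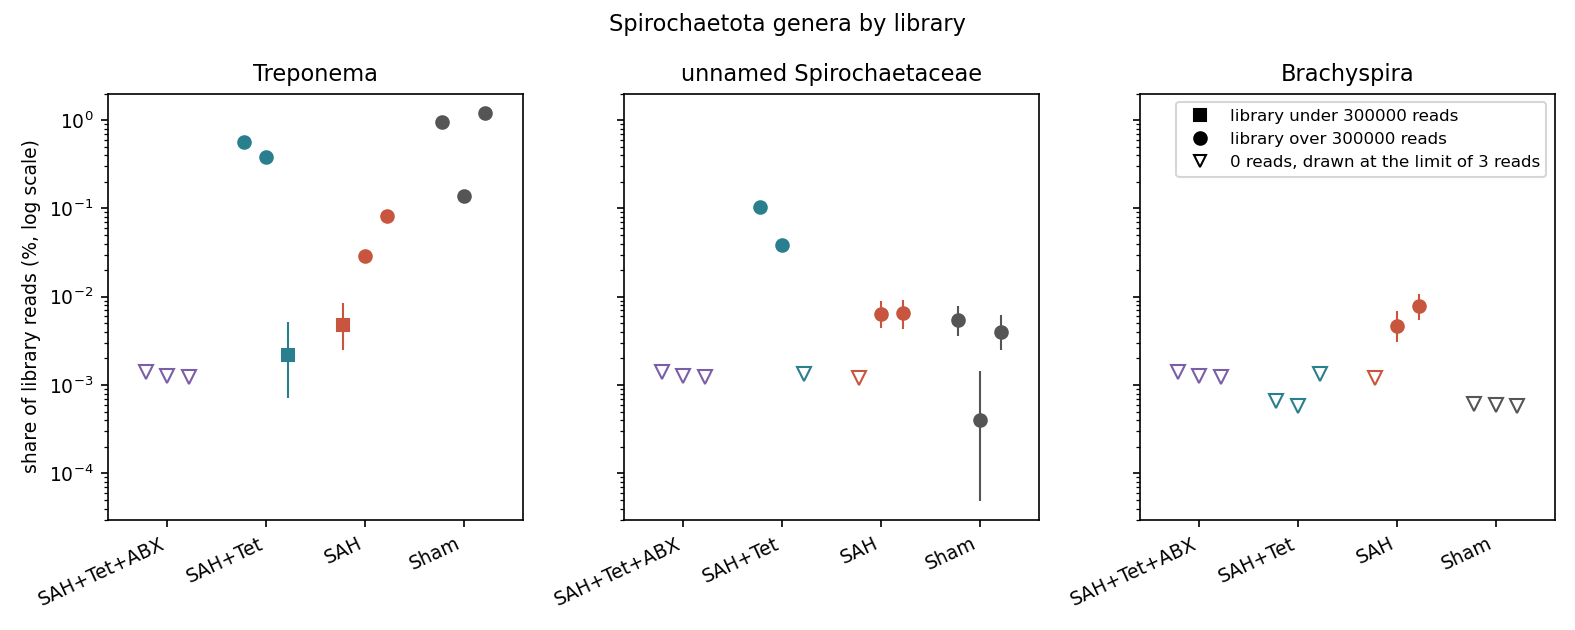
Share of library reads (%, log scale) of Treponema, unnamed Spirochaetaceae and Brachyspira in each of the 12 libraries; bars are exact 95% intervals, squares are libraries under 300000 reads, circles libraries over 300000 reads, and open triangles mark 0 reads at the limit of 3 reads. All SAH libraries lie below all Sham libraries for Treponema, an order that held for 43 of 188 genus features tested. SAH+Tet 3 lies with the lowest values, and Brachyspira has reads in SAH 2 and SAH 3 only.

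Group means were 0.363 ± 0.336% in SAH+Tet, 0.0471 ± 0.0461% in SAH and 0.764 ± 0.554% in Sham (SD, n = 3 each), so the SD was close to the mean in SAH+Tet and SAH. The SAH mean was 16.2-fold lower than the Sham mean, and 11.2-fold lower without SAH 1. All 3 SAH libraries were below all 3 Sham libraries, the nearest pair being SAH 3 at 0.0963% and Sham 2 at 0.139%. The same order held for 43 of the 188 genus features tested. SAH+Tet and SAH overlapped, because SAH+Tet 3 was below every SAH library. The ratio of the SAH+Tet mean to the SAH mean was 7.70, and 7.96 with SAH+Tet 3 and SAH 1 both left out. Between those 2 low-depth libraries themselves the order was the opposite, with 0.00220% in SAH+Tet 3 and 0.00483% in SAH 1. The ratio of SAH+Tet to Sham was 0.475, and 0.711 without SAH+Tet 3. SAH+Tet+ABX was at least 277-fold lower than SAH+Tet, counting 3 reads for each empty library. The only SAH+Tet library at the depth of the SAH+Tet+ABX libraries was SAH+Tet 3, whose 5 reads were close to that limit. Single libraries decided much of these sizes: without SAH 3 the ratio of SAH to Sham was 0.0295, against 0.0617 with all libraries. The ratio of SAH+Tet to SAH was 16.1 without SAH 3 and 4.47 without SAH+Tet 1.

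Treponema, the plant polysaccharide fermenter, carried nearly all of this pattern. Its share averaged 0.315 ± 0.286% in SAH+Tet, 0.0387 ± 0.0394% in SAH and 0.761 ± 0.552% in Sham (SD, n = 3 each), and it was not found in SAH+Tet+ABX. Its SAH mean was 0.0508 times the Sham mean (0.0730 times without SAH 1), and its SAH+Tet mean was 8.14 times the SAH mean. Of the phylum's reads, Treponema made up 84.3% to 90.7% in SAH+Tet and 72.4% to 85.2% in SAH, against 99.4% to 99.7% in Sham, in the 7 libraries with at least 100 Spirochaetota reads. The Sham spirochaetes were thus almost purely Treponema, and in these 7 libraries the ranges of the other groups did not reach the Sham range. The 12 spirochaete reads of SAH 1 and the 5 of SAH+Tet 3, below that minimum, were all Treponema.

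**Figure D2:**
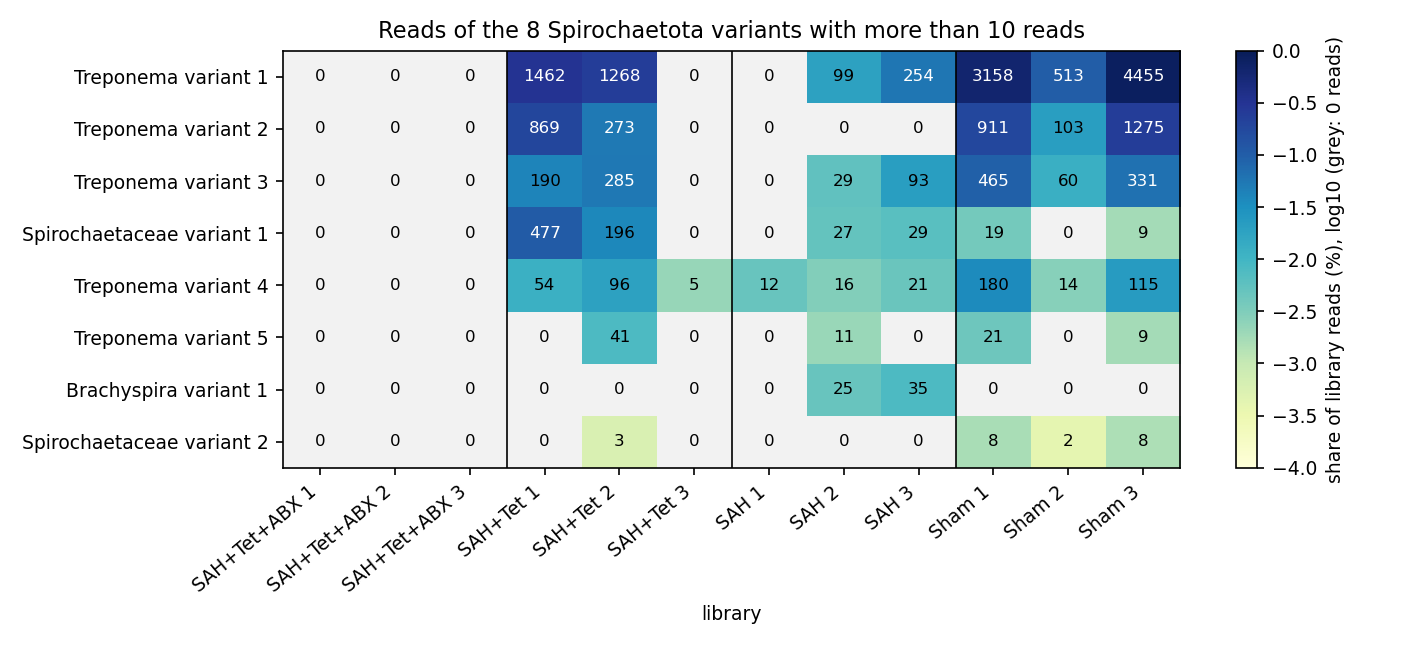
Reads (printed) and share of library reads (colour, log10 of %) of the 8 Spirochaetota variants with more than 10 reads in the 12 libraries. Treponema variant 2 is empty in all SAH libraries, Spirochaetaceae variant 1 is densest in SAH+Tet 1 and SAH+Tet 2, and Treponema variant 4 is the only variant with reads in SAH+Tet 3 and SAH 1.

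Treponema variant 1, the leading variant in every library with at least 100 Spirochaetota reads, had 1462, 1268 and 0 reads in SAH+Tet, 0, 99 and 254 in SAH and 3158, 513 and 4455 in Sham. As shares these were 0.319%, 0.245% and 0 in SAH+Tet, 0, 0.0186% and 0.0566% in SAH, and 0.637%, 0.103% and 0.857% in Sham. SAH lay below Sham in every library, with a mean 0.0471 times the Sham mean (0.0707 times without SAH 1), and the SAH+Tet mean was 7.50 times the SAH mean. All SAH libraries lay below all Sham libraries for 23.7% of the 2283 variants tested. Variants 1 and 2 both carry the uncultured bacterium species label, so no cultured species was named for either.

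Treponema variant 2 differed from variant 1 in being empty after haemorrhage alone. It had 869, 273 and 0 reads in SAH+Tet, 0, 0 and 0 in SAH and 911, 103 and 1275 in Sham. Counting 3 reads for each empty library, its SAH mean was at least 184-fold lower than its Sham mean, and its SAH+Tet mean was at least 99.4-fold higher than its SAH mean. Without SAH+Tet 3 and SAH 1 these bounds were 243-fold and 197-fold. SAH+Tet 1 and SAH+Tet 2 lay within the Sham range, at 0.190% and 0.0528% against 0.184%, 0.0207% and 0.245% in Sham.

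Variant 2 was at 0 in SAH also relative to variant 1. Set against 100 reads of variant 1 in the same library, variant 2 had 59.4 and 21.5 reads in SAH+Tet 1 and 2, 0 and 0 in SAH 2 and 3, and 28.8, 20.1 and 28.6 in Sham. SAH 2 and SAH 3 together held 353 reads of variant 1 and 0 of variant 2, which puts variant 2 at no more than 1.04% of the pair's reads (exact 95% interval, counting error only), against 16.7% to 22.4% in the Sham libraries. SAH+Tet 3 and SAH 1 had 0 reads of variant 1, so no such ratio could be formed there.

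**Figure D3:**
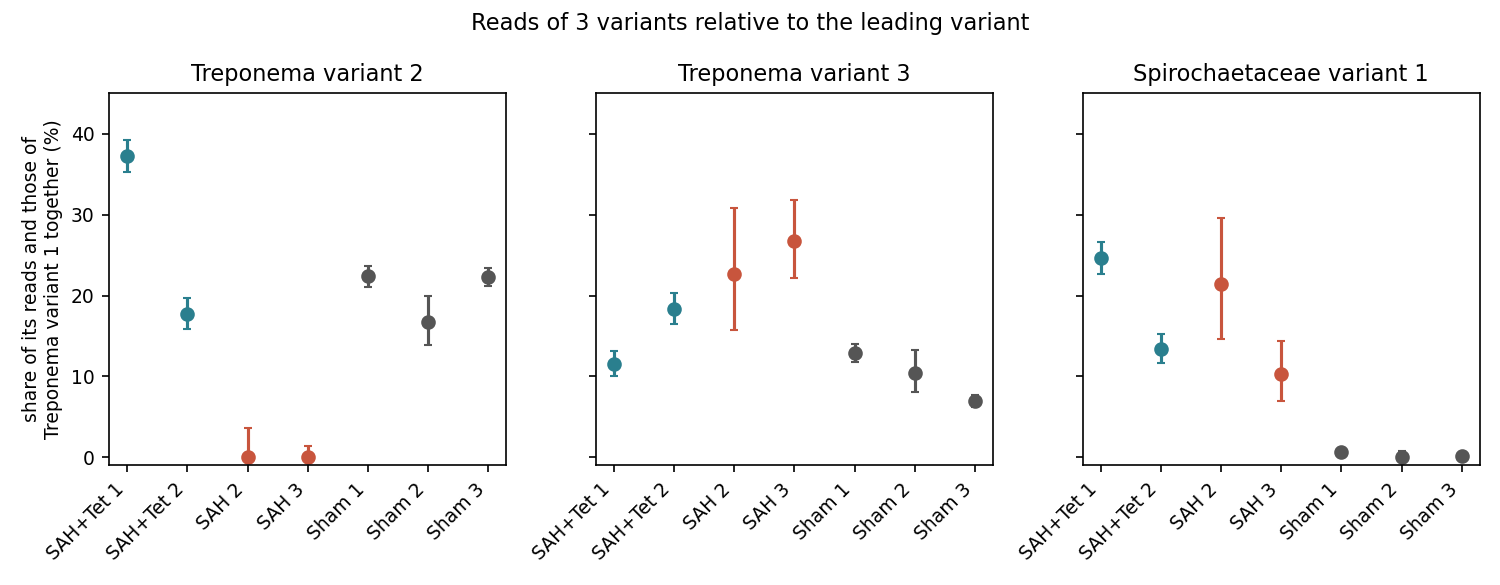
Reads of Treponema variant 2, Treponema variant 3 and Spirochaetaceae variant 1 as a share (%) of their own reads plus those of Treponema variant 1, in the 7 libraries with at least 50 reads of variant 1; bars are exact 95% intervals. Variant 2 is at 0 in SAH 2 and SAH 3, variant 3 is highest there, and Spirochaetaceae variant 1 is above 10% in SAH+Tet and SAH and below 0.6% in Sham.

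Treponema variants 3 and 4 had a smaller gap between SAH and Sham than variant 1. Variant 3 had 190, 285 and 0 reads in SAH+Tet, 0, 29 and 93 in SAH and 465, 60 and 331 in Sham, and its SAH mean share was 0.154 times the Sham mean, and 0.232 times without SAH 1. For variant 4 these ratios were 0.205 and 0.188. Per 100 reads of variant 1, variant 3 had 13.0 and 22.5 reads in SAH+Tet 1 and 2 and 29.3 and 36.6 in SAH 2 and 3, against 14.7, 11.7 and 7.43 in Sham. In SAH 2 and SAH 3 variant 3 made up more of the spirochaetes than in any Sham library, at 13.6% and 21.5% against 5.33% to 9.76% in Sham, while SAH 1 had none of it among 12 spirochaete reads. Yet its share of the whole library overlapped with Sham, where Sham 2 was at 0.0120% and SAH 3 at 0.0207%.

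Treponema variant 4 was the most widespread member and the only one with reads in all 9 libraries outside SAH+Tet+ABX. It had 54, 96 and 5 reads in SAH+Tet, 12, 16 and 21 in SAH and 180, 14 and 115 in Sham. Its shares were nearly level in SAH, at 0.00483%, 0.00301% and 0.00468%, and the low-depth SAH 1 was not the lowest of them. All Spirochaetota reads of SAH+Tet 3 and of SAH 1 belonged to this variant. Variant 5 was sparser still, with 0, 41 and 0 reads in SAH+Tet, 0, 11 and 0 in SAH and 21, 0 and 9 in Sham, and variant 6 was seen by 2 reads in SAH+Tet 2.

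The Spirochaetaceae without a genus name ran a different course from Treponema. Together they had 480, 201 and 0 reads in SAH+Tet, 0, 34 and 29 in SAH and 27, 2 and 21 in Sham. Their mean shares were 0.0479 ± 0.0530% in SAH+Tet, 0.00429 ± 0.00371% in SAH and 0.00330 ± 0.00260% in Sham (SD, n = 3 each), so with all libraries SAH and Sham differed by less than the spread between them. The ratio of SAH to Sham was 1.30, and 1.95 without SAH 1, when SAH 2 at 0.00640% and SAH 3 at 0.00646% both lay above the highest Sham library at 0.00544%. The SAH+Tet mean was 11.2 times the SAH mean and 14.5 times the Sham mean (21.8 times without SAH+Tet 3), yet SAH+Tet 3 held none.

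Spirochaetaceae variant 1 supplied nearly all of these reads. It had 477, 196 and 0 in SAH+Tet, 0, 27 and 29 in SAH and 19, 0 and 9 in Sham. Per 100 reads of Treponema variant 1 it had 32.6 and 15.5 reads in SAH+Tet 1 and 2 and 27.3 and 11.4 in SAH 2 and 3, against 0.602, 0 and 0.202 in Sham. Relative to the leading Treponema it was thus similar in SAH+Tet and SAH and far scarcer in Sham. Spirochaetaceae variant 2 was mostly a Sham variant, with 0, 3 and 0 reads in SAH+Tet, 0, 0 and 0 in SAH and 8, 2 and 8 in Sham. The remaining 6 unnamed variants had 1 to 7 reads each: variant 3 had 7 in SAH 2, variant 4 had 4 in Sham 3, and variants 5 to 8 had 1 or 2 each in SAH+Tet 1 or 2.

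**Figure D4:**
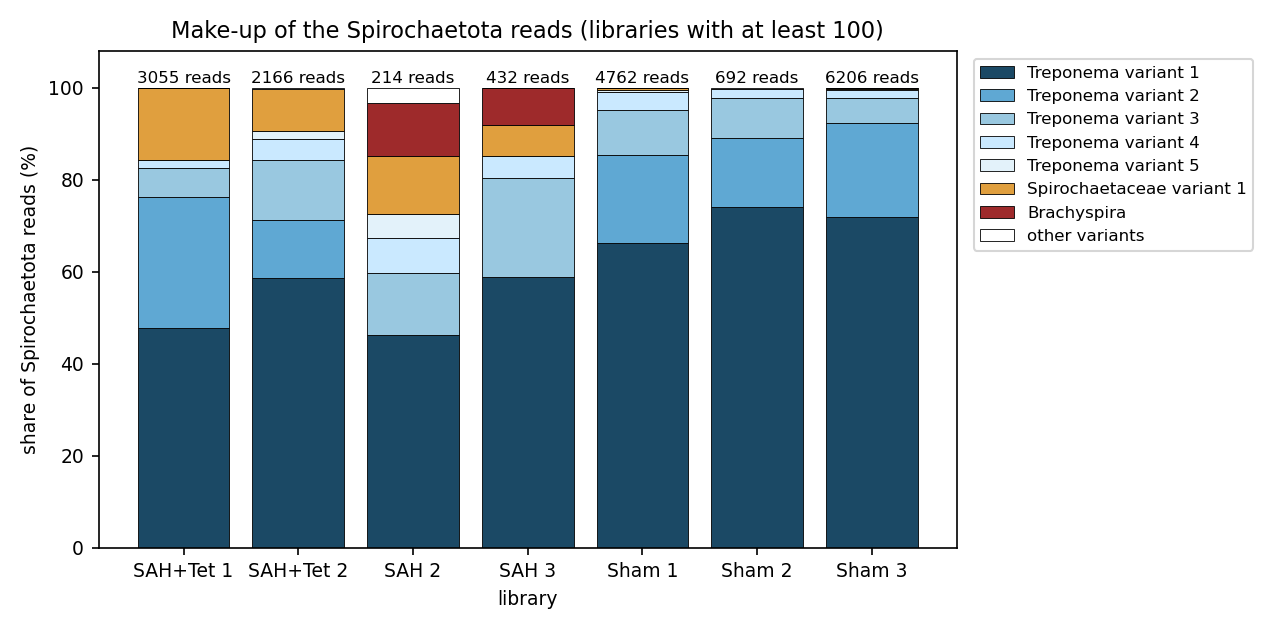
Make-up of the Spirochaetota reads (%) in the 7 libraries with at least 100 of them, with the number of reads above each bar. Treponema (blue) fills 99.4% to 99.7% of the Sham bars, Spirochaetaceae variant 1 (orange) 6.71% to 15.6% of the SAH+Tet and SAH bars, and Brachyspira (red) 8.10% to 11.7% of the SAH bars.

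Brachyspira, the genus of the intestinal spirochaetoses, had 25 reads in SAH 2 and 35 in SAH 3 and none in the other 10 libraries, SAH 1 included. Its shares were 0.00470% and 0.00780%, which made up 11.7% and 8.10% of the Spirochaetota reads of these libraries. The limits for the libraries without reads, from 3 reads each, were below these shares. Brachyspira was not alone in this pattern of presence. Of all features, however sparse, 7 of 385 genus-level features and 144 of 7238 variants had reads in SAH 2 and SAH 3 and nowhere else.

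The number of Spirochaetota variants seen was 0 in each SAH+Tet+ABX library, 7, 10 and 1 in SAH+Tet, 1, 7 and 5 in SAH and 7, 5 and 8 in Sham. Means were 6.00 ± 4.58 in SAH+Tet, 4.33 ± 3.06 in SAH and 6.67 ± 1.53 in Sham (SD, n = 3 each), differences smaller than the SD of SAH+Tet and of SAH. At the smallest library total of 211450 reads the expected means were 5.14 in SAH+Tet, 4.32 in SAH and 6.50 in Sham, in the same order as counted. Over the libraries of a group together, 12 variants were seen in SAH+Tet, 7 in SAH and 8 in Sham. The difference between SAH+Tet and SAH, 1.67 variants as counted, was -0.333 when only variants with at least 10 reads were counted. It also moved with single libraries, to -0.333 without SAH+Tet 2, 4.17 without SAH+Tet 3, 3.00 without SAH 2 and 0 without SAH 1.

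The gap between SAH and Sham rested mainly on Treponema variants 1 and 2. Without them the summed share was 0.0937 ± 0.0814% in SAH+Tet, 0.0220 ± 0.0174% in SAH and 0.0822 ± 0.0628% in Sham (SD, n = 3 each). The ratio of SAH to Sham was then 0.268 (0.373 without SAH 1), with overlapping groups, and the ratio of SAH+Tet to Sham was 1.14 (1.70 without SAH+Tet 3). Among the 7 libraries over 300000 reads the Spearman coefficient between shares was 0.95 for Treponema variants 1 and 2, 0.89 for variants 1 and 3, 0.76 for variants 2 and 3 and 0.96 for variants 3 and 4. For Treponema variant 1 and Spirochaetaceae variant 1 it was -0.14. These coefficients share the libraries' totals and are a description over 7 points.

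Model fits across all features were run with edgeR's quasi-likelihood test and Benjamini-Hochberg adjustment over all features. The low-count filter, at least 10 reads in at least 3 libraries, kept 6 of the 15 variants (Treponema variants 1 to 5 and Spirochaetaceae variant 1) and 2 of the 3 genus features (Treponema and the unnamed Spirochaetaceae). Because the members were picked on these same contrasts, their counts are set beside the background and nothing is read from them. For SAH against Sham, 0 of the 6 variants and 0 of the 2 genus features were called, beside a background of 0% of 2283 variants and 0% of 188 genus features. At an unadjusted p under 0.05 the counts were 1 of 6 (Treponema variant 2) and 552 of 2283, and 0 of 2 and 55 of 188. DESeq2 called Treponema variant 2 among 399 variants, and Treponema among 48 genus features.

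For SAH+Tet against SAH, 0 of the 6 variants and 0 of the 2 genus features were called, beside 0% of 2283 variants and 0% of 188 genus features. The unadjusted counts were 1 of 6 (Treponema variant 2 again) and 474 of 2283, and 0 of 2 and 37 of 188, while DESeq2 called Treponema variant 2 among 293 variants and neither genus feature among 30. SAH libraries were all below Sham for 2 of the 6 variants, Treponema variants 1 and 2, beside 23.7% of the 2283 variants tested. At genus level they were all below Sham for Treponema, 1 of the 2 genus features, beside 43 of 188. SAH+Tet libraries were all above SAH for 0 of the 6 variants, beside 9.81%. The 2 comparisons share the SAH libraries.

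For SAH+Tet+ABX against SAH+Tet, 1 of the 6 variants, Treponema variant 4, was called, and lower, beside 10.3% of 2394 variants called in either direction and 9.73% called lower. At an unadjusted p under 0.05 there were 5 of 6, beside 1264 of 2394. Which of the 6 were called moved with single libraries. The count was 5 without SAH+Tet 3 or without SAH 1. It was 0 without SAH+Tet 2, Sham 1, Sham 3 or any 1 of the SAH+Tet+ABX libraries. Over all variants, calls moved from 247 of 2394 to 493 of 2291 without SAH+Tet 3 and 560 of 2312 without SAH 1. They were 146 of 2187 without SAH+Tet 2, 112 of 2113 without Sham 1 and 76 of 2111 without Sham 3. Without 1 SAH+Tet+ABX library they were 0 to 78. Both genus features were called lower, beside 37.2% of 196 genus features called in either direction and 28.1% called lower. Treponema alone was called without Sham 3, SAH+Tet 1, SAH+Tet 2 or any 1 of the SAH+Tet+ABX libraries. In these fits 45 to 64 genus features were called in all, against 73 with all libraries. Absence in SAH+Tet+ABX was common: 1863 of the 2394 variants (77.8%) and 68 of the 196 genus features (34.7%) had no reads there.

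The spirochaetes were next set beside genera of similar habits, from 2 lists of names, both chosen with earlier results of these data known. One list held 18 fibre-degrading or rumen-type genera often reported with Treponema, of which 17 were found and tested. The other held 9 motile or mucus-dwelling gut genera, all found, of which 6 were tested and Campylobacter, Anaerobiospirillum and Lawsonia were too sparse. For SAH against Sham 0 of the 23 were called by edgeR. At an unadjusted p under 0.05 there were 4 (Akkermansia, Candidatus Arthromitus, Phascolarctobacterium and the Prevotellaceae NK3B31 group), beside 55 of all 188 genus features. DESeq2 called the first 3, beside 48 of all 188. Akkermansia, a mucin degrader, had 0, 0.0442% and 0.0334% in SAH, against 1.09%, 5.44% and 1.80% in Sham, and Candidatus Arthromitus, the segmented filamentous bacteria, had 0.0338%, 0.0141% and 0.0459% in SAH, against 0.00323%, 0.00181% and 0.00423% in Sham. The edgeR adjusted p was 0.139 for Akkermansia and 0.0861 for Candidatus Arthromitus. For SAH+Tet against SAH edgeR called 0, with 2 at an unadjusted p under 0.05 (Bilophila and Candidatus Arthromitus), beside 37 of 188. DESeq2 called 3 (these and the NK4A214 group), beside 30 of 188. The median log2 fold change for SAH against Sham was 0.47 for the fibre genera, -1.04 for the mucus genera and 0.22 for all genus features. For SAH+Tet against SAH the medians were -0.07, 0.41 and 0.09.

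Some fibre-degrading companions differed from the spirochaetes in which Sham library was high. Fibrobacter, a genus of cellulose degraders known from the rumen, had 395, 267 and 0 reads in SAH+Tet, 0, 58 and 19 in SAH and 38, 621 and 20 in Sham. It was thus highest in Sham 2, the Sham library with the fewest spirochaetes. Prevotellaceae UCG-003, an uncultured group of plant polysaccharide users, likewise stood at 6.89% in Sham 2, against 0.480% in Sham 1 and 0.346% in Sham 3. Sham 2 was also the highest Sham library for Alloprevotella, Elusimicrobium, UCG-005, the Rikenellaceae RC9 gut, Prevotellaceae Ga6A1, Christensenellaceae R-7 and NK4A214 groups. It was the lowest Sham library, as for the spirochaetes, for Ruminococcus, Prevotellaceae UCG-001, the Prevotellaceae NK3B31 group, Anaerovibrio and Anaeroplasma. How alike the fibre list and the summed Spirochaetota share were depended on the libraries used. The Spearman coefficient was above 0 for 15 of the 17 genera over all 12 libraries (median 0.35), for 10 over the 9 libraries without antibiotics (median 0.12) and for 7 over the 7 libraries above 300000 reads (median -0.29). Over those 7 it ranged from -0.93 for Elusimicrobium to 0.46 for the NK4A214 group. Fibrobacter was at 0.71 over 12 libraries, 0.39 over 9 and -0.29 over 7, and Prevotellaceae UCG-003 at 0.61, 0.12 and -0.89. For the 6 mucus genera the median was 0.59, 0.44 and 0.45.

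Several companions, like the spirochaetes, had no reads in SAH+Tet+ABX. For SAH+Tet+ABX against SAH+Tet, 8 of the 17 fibre genera fell and 0 rose, and 4 of the 6 mucus genera fell and 1 rose (edgeR, adjusted p under 0.05). Of all 196 genus features, 37.2% were called and 28.1% called lower. The fitted median log2 fold change was -4.95 for the fibre genera, -9.71 for the mucus genera and -1.65 for all genus features, values that for empty genera depend on the prior count. As log2 ratios of mean shares with an empty group set at 3 reads per library, the medians were -2.17 for the fibre genera, -4.47 for the mucus genera and -1.35 for the 191 genus features that had a ratio. Among the fibre genera Prevotella, a polysaccharide fermenter, averaged 0.000712 ± 0.00123% in SAH+Tet+ABX and 1.23 ± 1.06% in SAH+Tet (adjusted p = 0.00863, edgeR). UCG-005, an uncultured group of Oscillospiraceae, averaged 0.0419 ± 0.0472% in SAH+Tet+ABX, against 2.75 ± 1.15% in SAH+Tet (adjusted p = 0.0180, edgeR). Fibrobacter, Prevotellaceae UCG-003, the Rikenellaceae RC9 gut group, Elusimicrobium and Phascolarctobacterium, a user of succinate, also fell, each with 0 reads in all 3 SAH+Tet+ABX libraries. They were at least 29.6-fold to 508-fold lower there (edgeR adjusted p 0.0180 to 0.0449), and Fibrobacter, Prevotellaceae UCG-003 and the Rikenellaceae RC9 gut group were at 0 in SAH+Tet 3 as well. Elusimicrobium was called in all 20 settings run. Fibrobacter, Prevotellaceae UCG-003, the Rikenellaceae RC9 gut group and Phascolarctobacterium were not called with replicate number or library depth class as a term. None of them was called without SAH 2, without SAH+Tet 2 or without any single SAH+Tet+ABX library either. The NK4A214 group fell to 0.0996 ± 0.0719% in SAH+Tet+ABX, against 0.742 ± 0.192% in SAH+Tet (adjusted p = 0.0197, edgeR).

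Of the mucus genera, Helicobacter, spiral bacteria that swim in mucus by external flagella, had no reads in SAH+Tet+ABX, against 0.627 ± 0.200% in SAH+Tet. It was at least 480-fold lower at 3 reads per library (adjusted p = 0.000695, edgeR). Mucispirillum, a spiral mucus dweller of rodents, and the sulfur-metabolising Desulfovibrio and Bilophila fell as well, by at least 22.3-fold, 50.1-fold and 22.1-fold (edgeR adjusted p 0.00174 to 0.00733). Akkermansia was higher, at 1.18 ± 0.829% in SAH+Tet+ABX against 0.0176 ± 0.0263% in SAH+Tet (adjusted p = 0.0461, edgeR), but was called in only 8 of the 20 settings run. Bilophila, Desulfovibrio, Elusimicrobium, Helicobacter, Mucispirillum and Prevotella were called in all 20 settings. Leaving out SAH 2, SAH+Tet 2 or SAH+Tet+ABX 2 left 8 of the companions called, and leaving out SAH+Tet+ABX 3 left 7, against 13 with all libraries.

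**Figure D5:**
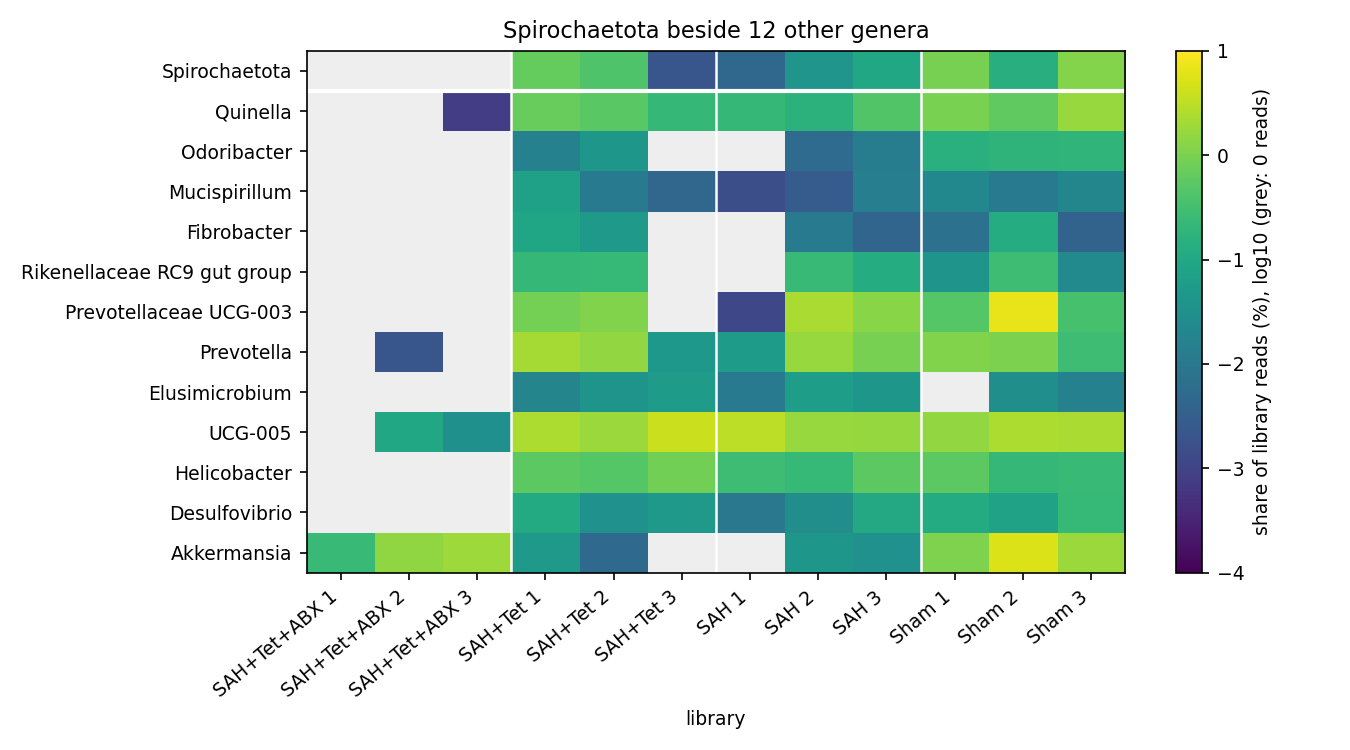
Share of library reads (log10 of %) of the summed Spirochaetota and of 12 other genera in the 12 libraries, grey where a genus had 0 reads. Helicobacter, Desulfovibrio and Mucispirillum keep reads in SAH+Tet 3 and SAH 1, while Fibrobacter, Odoribacter and the Rikenellaceae RC9 gut group have none there. Quinella, picked from 194 genus features, orders the 12 libraries most like the Spirochaetota row by rank. Its shares in SAH+Tet 3 and SAH 1 are far higher than those of Spirochaetota.

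Companions differed in whether they had reads in SAH+Tet 3 and SAH 1, where spirochaetes were sparsest. Of the 23 tested, 16 had reads in both, 6 in neither and 1 in SAH 1 alone. Of all 196 genus features, 44 (22.4%) had reads in neither, so the companions were much like the whole table in this. The unnamed Spirochaetaceae belonged to 10 of 196 genus features (5.10%) with reads in all 7 libraries over 300000 reads and in none of the 5 below it. Of the companions only Fibrobacter and the Rikenellaceae RC9 gut group shared that pattern, and Odoribacter was among the others. Helicobacter behaved otherwise, at 0.855% in SAH+Tet 3 and 0.277% in SAH 1, within or above the range of 0.211% to 0.549% in the 7 deeper libraries. The part of depth and of low variant number in the spirochaete values of SAH+Tet 3 and SAH 1 was not tested.

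The genera whose shares ordered the libraries most like the summed Spirochaetota share were sought among 194 genus features outside the phylum. Over all 12 libraries these were Quinella (Spearman 0.97), Mucispirillum (0.93), Odoribacter (0.92), Desulfovibrio (0.91) and Anaerofilum (0.91). Over the 9 libraries without antibiotics they were Quinella (0.93), Izemoplasmatales, Odoribacter, an unnamed Bacteroidia feature and Mycoplasma (0.88 each). Over the 7 deeper libraries Quinella stood at 0.96, level with Colidextribacter, a UCG-003 feature of Firmicutes and an unnamed Rhizobiaceae feature. There Desulfovibrio was at 0.86, Izemoplasmatales at 0.82, Anaerofilum at 0.68, and Mucispirillum, Odoribacter, the unnamed Bacteroidia feature and Mycoplasma at 0.75 each. Each was lower there than in the ranking that named it above. Quinella, large bacteria known from the rumen of sheep, had shares of 0, 0 and 0.000817% in SAH+Tet+ABX and 0.696%, 0.518% and 0.216% in SAH+Tet. In SAH it had 0.217%, 0.163% and 0.444%, and in Sham 0.986%, 0.591% and 1.68%. Its largest Sham value was in Sham 3 and its smallest in Sham 2, as for the spirochaetes. Quinella kept 0.216% and 0.217% of the reads in SAH+Tet 3 and SAH 1, where Spirochaetota had 0.00220% and 0.00483%. All coefficients share the libraries' totals, and the features at the top were picked from many.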

How the data were processed

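The authors deposited whole read counts per ASV, unscaled, with a lineage for each, in 12 libraries of rat faecal 16S rRNA amplicons. Per the submitters' processing notes, fastp and cutadapt were used. No denoiser, primer, 16S region or reference database is named in those notes or labels, and these set which names a variant can carry. Another treatment label, on all samples, names a cell protocol that does not match faeces and was ignored. Totals ranged from 211450 to 531426 reads. The members and the lists were chosen with earlier results of these data known.

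Shares are percent of all reads of a library. Where a lineage stops above genus, reads were added up at its last named rank, which gave 385 genus-level features. Intervals are exact Clopper-Pearson at 95%, and 0 reads are bounded by 3. Both cover counting error only. The 2 Eukaryota ASVs were left out of the fits. Counts were fitted in edgeR 4.0.16 in R 4.3.3 (TMM, quasi-likelihood, at least 10 reads in at least 3 libraries, Benjamini-Hochberg threshold 0.05). A fit of 9 libraries gave SAH against Sham and SAH+Tet against SAH, and a fit of all 12 gave SAH+Tet+ABX against SAH+Tet. p-values measure only the spread between these libraries, which may be technical. Alternatives were DESeq2 1.42.0, library-size scaling, no low-count filter, the 6 libraries of a comparison alone, depth class, replicate number, each library left out and, chosen after seeing the data, SAH 1 and SAH+Tet 3 left out together. Tables were made with Python 3.11.15 and pandas 2.3.3. Named are all genus features of the phylum, the 12 variants with the highest mean share, companions that passed the test with up to 8 others of highest mean share, and the 5 features most alike over 12 and over 9 libraries. Further variants and genera were named after their values were seen.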

Additional observations from a re-analysis of the deposited data

How the results depend on the processing

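The ratios of summed shares kept their direction in the alternatives run. Leaving out 1 library each gave 0.0295 to 0.0893 for SAH over Sham and 4.47 to 16.1 for SAH+Tet over SAH. Group medians gave 0.0419 and 10.4. The phylum was picked on these shares, so nothing is read from the kept direction. Between the low-depth libraries alone the order was the opposite, with 0.00220% in SAH+Tet 3 and 0.00483% in SAH 1. The difference in variant number between SAH+Tet and SAH was -0.333 at a minimum of 10 reads and -0.333 to 4.17 with 1 library left out. For SAH against Sham, 1 Spirochaetota variant was called with DESeq2, 1 without the low-count filter and 1 with only the 6 libraries, all of them Treponema variant 2. DESeq2 called 1 genus. For SAH+Tet against SAH, DESeq2 called 1 variant and the fit without filter 1. For SAH+Tet+ABX against SAH+Tet, 5 variants were called with DESeq2, 2 without filter, 0 with depth class as a term, 5 with SAH 1 and SAH+Tet 3 left out, and 0 to 5 with 1 library left out. In the 6 libraries alone no member passed the filter, so that fit gave no value. Genus calls there were 1 with depth class as a term, 1 with a replicate block and 1 to 2 with 1 library left out.

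Companion calls for SAH against Sham were 3 with DESeq2, 2 with depth class as a term and 2 with SAH 1 and SAH+Tet 3 left out, and for SAH+Tet against SAH 3 with DESeq2. For SAH+Tet+ABX against SAH+Tet they were 6 with the 6 libraries alone, 8 with a replicate block and 7 to 13 with 1 library left out. The labels do not say what the replicate numbers stand for. Correlations of same-numbered deviations were 0.0989, 0.221 and -0.0907 for SAH and Sham, and -0.620, 0.615 and -0.487 for SAH+Tet and SAH. Between SAH+Tet+ABX and its counterpart SAH+Tet they were -0.117, 0.115 and 0.0846. So few values cannot decide whether libraries were paired. The block changed no other count of calls of members or companions, though the 1 variant called was then Treponema variant 1 in place of variant 4. The cause of these changes was not tested.

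Over all features, calls of variants for SAH against Sham were 0 with edgeR, 399 with DESeq2, 160 without filter and 304 with the 6 libraries, and for SAH+Tet against SAH 0, 293, 90 and 0. Those of genera were 0 with edgeR, 48 with DESeq2, 29 with depth class and 26 with SAH 1 and SAH+Tet 3 left out for SAH against Sham, and 0, 30, 0 and 1 for SAH+Tet against SAH. For SAH+Tet+ABX against SAH+Tet, 247 variants were called with edgeR, 866 with DESeq2, 155 with library-size scaling, 422 with the 6 libraries, 99 with the block, 145 with depth class and 718 with SAH 1 and SAH+Tet 3 left out. Leaving out 1 SAH+Tet+ABX library gave 0 to 78. The 73 genera were 44 with the block, 43 with the 6 libraries and, with DESeq2, 105 (38 higher and 67 lower, against 18 and 55). For SAH against Sham the median log2 fold change of all genera was 0.22 with TMM and -0.02 with library-size scaling. At the smallest library total SAH 2 and SAH 3 would still hold 85.1 and 203.5 Spirochaetota reads, against 4.65 in SAH+Tet 3 and 10.2 in SAH 1.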

Other observations

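Brachyspira appeared in SAH 2 and SAH 3, and the genera here, chosen after their values were seen, were also high in those libraries. Weissella, a lactic acid bacterium, had 0, 0.522% and 0.465% in the SAH libraries, against 0, 0 and 0.000962% in the Sham libraries. Enterococcus had 0.00201%, 0.141% and 0.158% in SAH, against 0.000202%, 0 and 0.00135% in Sham. Escherichia-Shigella had 0.0129%, 0.183% and 0.238% in SAH, against 0.00423%, 0.00421% and 0.00154% in Sham. SAH 1 was thus apart from SAH 2 and SAH 3 for all 4 genera.

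Corynebacterium was also chosen after its values were seen. It separated the 7 libraries with at least 50 reads of Treponema variant 1 as Spirochaetaceae variant 1 did relative to that variant. SAH+Tet 3 and SAH 1 had 0 reads of Treponema variant 1, so they could not be compared in this way. The shares of Corynebacterium were 7.19%, 10.3% and 0.0106% in SAH+Tet, 0.0451%, 10.2% and 9.40% in SAH and 0.00423%, 0.0112% and 0.00808% in Sham. The libraries with a high share, SAH+Tet 1, SAH+Tet 2, SAH 2 and SAH 3, are those in which Spirochaetaceae variant 1 had 11.4 to 32.6 reads per 100 of Treponema variant 1. Weissella, Enterococcus and Escherichia-Shigella also had a higher share in each of these libraries than in any Sham library. The split was thus not particular to Corynebacterium.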
